A study of Homo sapiens with 2 samples.

Results

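H/ACA small nucleolar RNAs and small Cajal body RNAs were taken as the genes whose symbol begins with SNORA or SCARNA and a number. On the array annotation 77 of 18377 genes met this rule through probe sets with a single symbol, 61 SNORA and 16 SCARNA genes, measured by 83 probe sets. RNA came from LP-1, a cell line grown from a human multiple myeloma, a cancer of plasma cells, and was hybridized to 2 Affymetrix arrays that cover whole transcripts. The cells of 1 array carried pRUF-IRES-GFP without an insert and are called the vector control. Those of the other, called HIF2A, stably overexpressed human HIF-2α from the full-length cDNA in that vector. HIF-2α is the product of EPAS1 and a subunit of a transcription factor that responds to oxygen. Whether each line is a clone or a pool, and the oxygen level during growth, are not stated in the labels. RNA was extracted with TRIzol and cleaned on an RNeasy column.

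H/ACA RNAs fold into a pair of hairpins and, with the proteins dyskerin (DKC1), NHP2, NOP10 and GAR1, guide the conversion of uridine to pseudouridine. SNORA RNAs work mainly on ribosomal RNA in the nucleolus, and scaRNAs work on spliceosomal small nuclear RNAs in Cajal bodies. The scaRNA class is defined by place and not by structure, so it also holds box C/D RNAs, which guide ribose methylation, and RNAs that join a C/D and an H/ACA part. Most human members lie in introns of other genes and are released by splicing and trimming of the host transcript, and many hosts encode proteins of the ribosome or of translation. In myeloma, SCARNA22 (ACA11) is known as a passenger of the NSD2 gene, which is joined to the immunoglobulin heavy chain locus by a recurrent translocation that LP-1 carries.

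All signals are log2 values of a gene's probe set with the highest mean, and differences are HIF2A minus vector control. With 1 array per group there is no test across samples, and each difference has no replicate check. EPAS1 had 3.70 in the vector control and 9.05 in HIF2A. The plasma cell markers SDC1, TNFRSF17, IRF4, PRDM1, XBP1, MZB1, CD38 and NSD2 ranged from 6.29 to 10.13 in the vector control and from 6.28 to 10.47 in HIF2A. The lowest difference among them was that of TNFRSF17, the receptor BCMA, with 8.71 and 7.68, and the highest that of MZB1, with 8.47 and 8.91. In contrast, 11 markers of T, myeloid, stromal and erythroid cells ranged from 2.67 to 4.72 and from 3.09 to 4.59, with 4 past the filter given next. Background was read from 339 genes of olfactory receptors, whose 95th percentile was 3.58 in each array. A gene passed the filter when its brighter array reached 4.01, the median of probe set means, and 11469 genes did. Over these the median difference was 0.03 and the robust SD, the scaled median absolute deviation, was 0.34.

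The sequence tables used here hold no sequence of these RNAs, except where a microRNA precursor lies inside one. This was found for 1 of the 77, SCARNA16, an H/ACA scaRNA. The precursor is shown because a signal over this stretch cannot be told apart from the scaRNA, and no probe set carries MIR6516 alone. The hairpin of MIR6516 lies on the plus strand of GRCh38.p14 at chr17:77089417-77089497 per RefSeq and runs 4 bases past the end of SCARNA16. Capitals mark both mature arms in the hairpin and the seed, bases 2 to 8, in each arm.
MIR6516 hairpin: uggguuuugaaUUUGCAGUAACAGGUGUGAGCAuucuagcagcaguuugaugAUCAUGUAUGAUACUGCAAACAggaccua
hsa-miR-6516-5p: uUUGCAGUaacaggugugagca
hsa-miR-6516-3p: aUCAUGUAugauacugcaaaca

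Of the 77 genes, 48 passed the filter, 36 SNORA and 12 SCARNA genes. In 47 of these both arrays lay above the olfactory receptor percentile, and the exception was SNORA14A. The 48 went both ways, with 23 higher and 25 lower in HIF2A and a median difference of -0.05. Of all genes past the filter 52.6% were higher and 46.1% lower. At least 1.5-fold higher were 7 of them, or 14.6%, against 5.67% of all genes past the filter. At least 1.5-fold lower were also 7, or 14.6%, against 4.76% of all genes, and 1 of these 7, SNORA14A, is below background in HIF2A and bounded at only 1.49-fold. These shares are descriptions, since 5 members passed the filter through HIF2A only and 4 through the vector control only, each where it was brighter. Among the 7 higher these are SNORA65 and SNORA74A, and among the 7 lower SNORA14A. Over all 77 without a filter the counts were also 7 and 7, where 3.81% and 3.37% of all genes were past 1.5-fold. At least 2-fold, 1 was higher and 2 were lower, where 0.706% and 0.732% of all genes were. The median size of the difference, whatever its sign, was 0.41 for these RNAs and 0.23 for all genes past the filter. Among genes with a mean signal between 4 and 6 it was 0.39 for 34 of these RNAs and 0.22 for 6791 genes, so the sizes were also larger in that band. In it 7 of the 34, or 20.6%, were at least 1.5-fold higher, against 5.48% of genes, but 2, or 5.88%, were at least 1.5-fold lower, against 4.01% of genes. Box C/D small nucleolar RNAs (SNORD), the closest other class, had the same median size of 0.41 over 57 genes but a median difference of 0.28, with 38 higher and 19 lower. MicroRNA precursor genes had a median size of 0.19 over 49 genes.

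**Figure D1:**
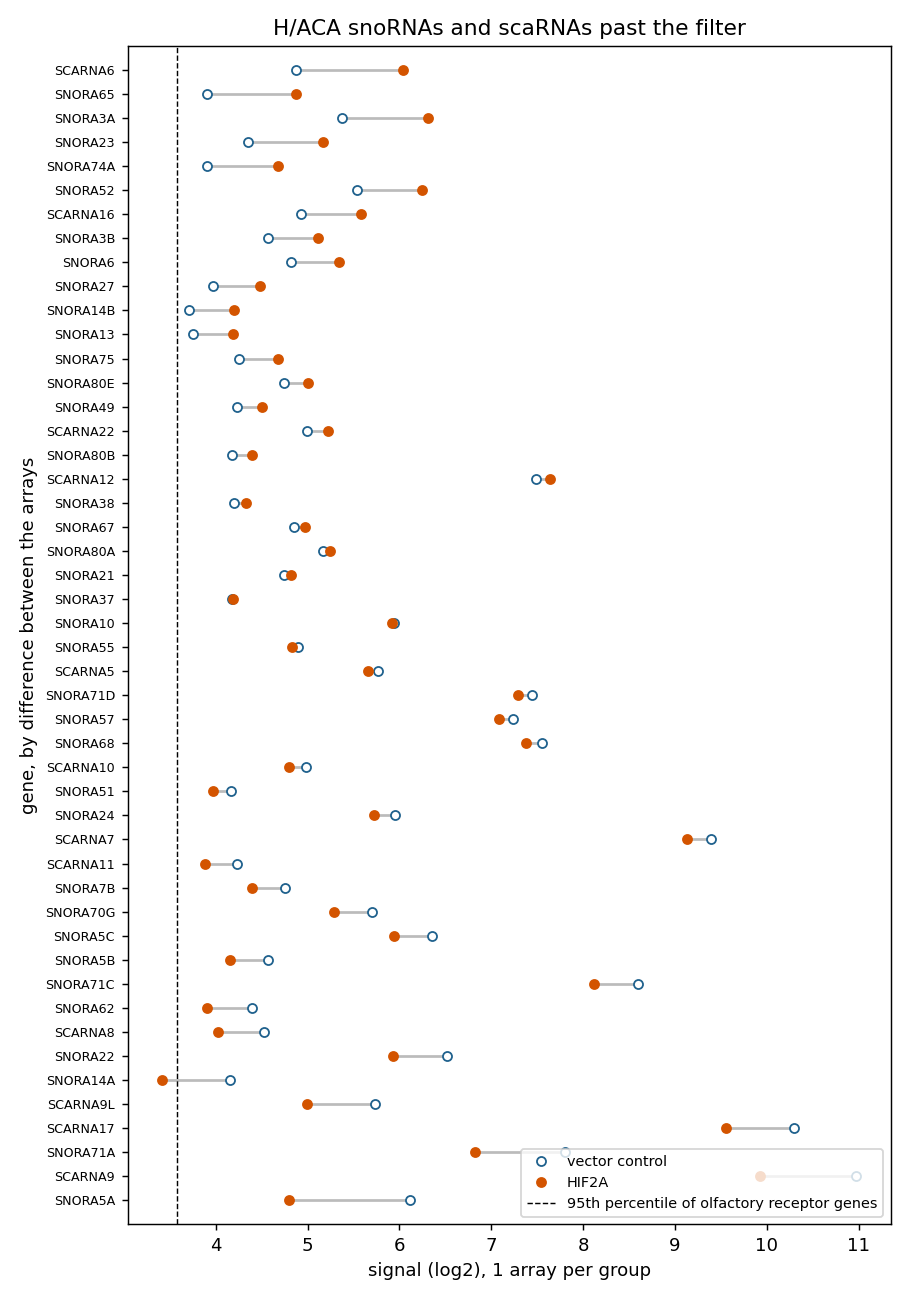
Log2 signal of the 48 SNORA and SCARNA genes past the filter in the vector control (open circles) and HIF2A (filled circles), 1 array each, ordered by the difference between the arrays. SCARNA6 has the highest and SNORA5A the lowest difference, at 1.17 and -1.32, and the dashed line marks the olfactory receptor percentile of 3.58.

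The scaRNAs of the box C/D type were lower in HIF2A. SCARNA9, a guide for U2 small nuclear RNA that is also named mgU2-19/30, had 10.97 in the vector control and 9.93 in HIF2A, a difference of -1.04 or 2.06-fold. SCARNA17 (U91), which lies in the non-coding gene SNHG22, had 10.30 and 9.56, a difference of -0.74. Its other probe set had 10.23 and 9.36, a difference of -0.87, so both probe sets were lower by at least 1.5-fold. SCARNA7 (U90), in the importin gene KPNA4, had 9.39 and 9.13, a difference of -0.26, within the robust SD. SCARNA9L, a copy of SCARNA9 on the X chromosome in the translation initiation gene EIF1AX, had 5.73 and 4.99, a difference of -0.74.

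For SCARNA9 and SCARNA9L the direction depends on the probe set. The other probe set of SCARNA9 had 3.58 and 3.82, a difference of 0.24, and that of SCARNA9L had 3.09 and 3.64, a difference of 0.55. These other probe sets were near background in both arrays. SCARNA9 and SCARNA9L are related in sequence, and cross-hybridization between them was not analysed here, so they may not be separate observations. The median difference of the 4 genes was -0.74, and it was -0.33 with the mean of each gene's probe sets.

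The 4 scaRNAs with a C/D and an H/ACA part showed no common direction. SCARNA6 (U88) had 4.87 in the vector control and 6.04 in HIF2A, a difference of 1.17 or 2.25-fold, the highest of the 48. SCARNA5 (U87) lies in the same gene, the autophagy gene ATG16L1, and had 5.77 and 5.66, a difference of -0.11. ATG16L1 itself had 4.59 and 4.92, a difference of 0.33. Thus 2 guide RNAs held by 1 gene lay on opposite sides of 0. SCARNA12 (U89), in the prohibitin gene PHB2, had 7.49 and 7.64, and SCARNA10 (U85), in the condensin gene NCAPD2, had 4.98 and 4.80.

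The H/ACA scaRNAs past the filter were also split, 2 higher and 2 lower. SCARNA16 (ACA47), whose stretch shared with MIR6516 is printed above, had 4.93 in the vector control and 5.58 in HIF2A, a difference of 0.65 or 1.57-fold. It lies in the span of both SNHG20 and SEC14L1, and SEC14L1 had a difference of 0.42. SCARNA22 (ACA11) had 4.99 and 5.22, a difference of 0.23, within the robust SD. Its host NSD2, a histone methyltransferase gene, had 6.29 and 6.28. Neither the passenger RNA nor its host therefore differed by as much as 1.5-fold between the arrays. SCARNA8 (U92), in the spindle gene HAUS6, had 4.53 and 4.03, a difference of -0.50, beside -0.48 for HAUS6. SCARNA11 (ACA57), in the span of CHD4 and its antisense gene, had 4.23 and 3.88, and passed the filter through the vector control only. SCARNA1, SCARNA4, SCARNA14 and SCARNA23 were below the olfactory receptor percentile in both arrays, so no difference is read from them.

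**Figure D2:**
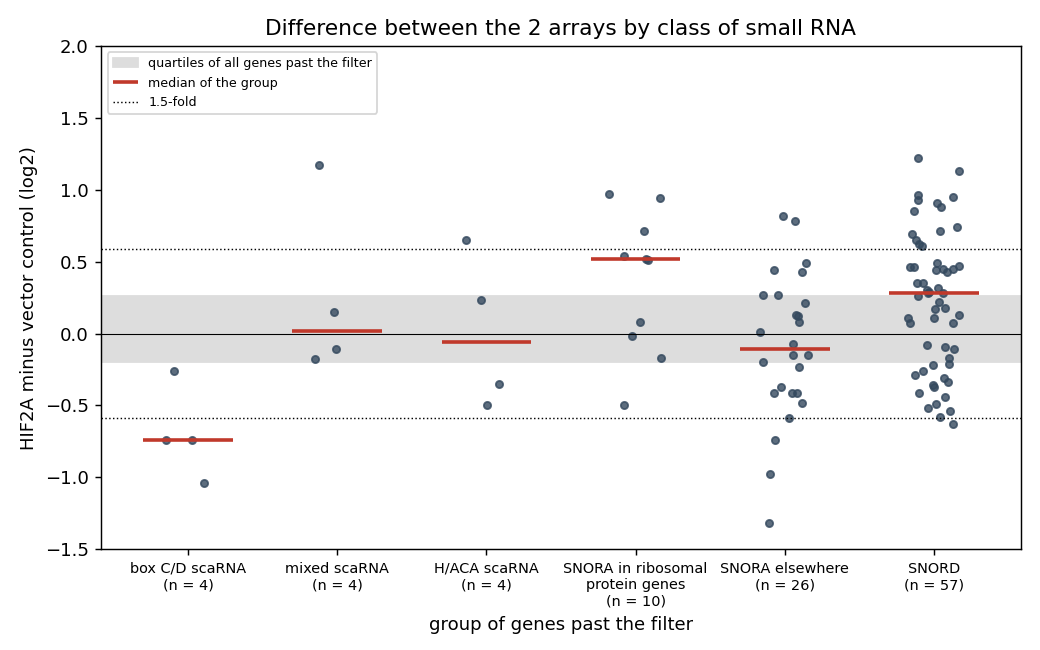
Difference between the arrays (HIF2A minus vector control, log2) for genes past the filter, 1 point per gene, by class of small RNA, with the median of each class as a bar, the quartiles of all 11469 genes as a grey band and 1.5-fold as dotted lines. The 4 box C/D scaRNAs lie below 0, SNORA genes inside ribosomal protein genes have a median of 0.52 and other SNORA genes one of -0.11.

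Among SNORA genes the values were set out by the gene that holds each one. Of the 61, 12 lie in ribosomal protein genes, and 10 of these passed the filter, with a median difference of 0.52, 7 higher and 3 lower. SNORA65 and SNORA27 passed through HIF2A only and SNORA62 through the vector control only, and over all 12 the median was 0.32. It was 0.22 with 32 added to each linear value, and 0.35 over the 4 genes, 2 of them higher, that passed a filter at the 75th percentile. Among the 26 that passed and lie elsewhere, 12 were higher and 14 lower, with the median at -0.11. Their median was 0.01 with the brightest member of each holding gene, and -0.41 over the 9 that passed a filter at the 75th percentile. This contrast between classes was not tested, since each group has 1 array. Of 56 genes for ribosomal proteins themselves, 46 were higher and 10 lower, and their median was 0.30.

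SNORA65 (U65), in RPL12, a gene of the large ribosomal subunit, had 3.90 in the vector control and 4.87 in HIF2A, a difference of 0.97 or 1.96-fold. RPL12, read from the brightest of its 4 probe sets, had 11.16 and 11.17, a difference of 0.01. By that probe set the difference of the small RNA was not shared by its host. SNORA3A (ACA3), in RPL27A, had 5.37 and 6.31, a difference of 0.94 or 1.92-fold, and SNORA3B in the same gene had 4.57 and 5.11, a difference of 0.54. RPL27A had 7.08 and 8.03, a difference of 0.95, so all 3 were higher in HIF2A. SNORA52, in the ribosomal stalk gene RPLP2, had 5.54 and 6.25, a difference of 0.71, beside 0.38 for RPLP2. SNORA52 came to 0.42 after its neighbours' median was subtracted, short of 1.5-fold. SNORA27, in RPL21, had 3.97 and 4.48.

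RPSA, which encodes a small subunit protein, holds a pair of SNORA genes that went opposite ways. SNORA6 had 4.82 in the vector control and 5.34 in HIF2A, a difference of 0.52. SNORA62 (E2) had 4.40 and 3.90, a difference of -0.50, and passed the filter through the vector control only. RPSA has no probe set with its symbol alone, so its own level is not given. SNORA21 in RPL23 and SNORA10 in RPS2 lay near 0, at 0.08 and -0.02. The probe sets of SNORA10, 2 in number, gave equal values of 5.94 and 5.92, and so count as 1 measurement. SNORA33 and SNORA69 did not pass the filter.

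Outside ribosomal protein genes, 2 hosts hold several lower SNORA genes each. TBRG4, a gene of mitochondrial RNA metabolism on chromosome 7, holds SNORA5A, SNORA5B and SNORA5C. SNORA5A had 6.12 in the vector control and 4.80 in HIF2A, a difference of -1.32 or 2.50-fold, the lowest of the 48. SNORA5B had 4.57 and 4.16, and SNORA5C had 6.35 and 5.94, a difference of -0.41 for each. TBRG4 had 6.06 and 5.65, which is also -0.41. The 3 RNAs and their host were thus all lower, and SNORA5A was lower by more than its host. The median of the 20 nearest other genes was -0.22, so the genes around TBRG4 were lower too, and their part in the result was not tested.

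SNHG17, a non-coding gene on chromosome 20 known as a snoRNA host, holds SNORA71A, SNORA71C and SNORA71D. SNORA71A had 7.80 and 6.82, a difference of -0.98 or 1.97-fold. SNORA71C had 8.60 and 8.12, a difference of -0.48, and SNORA71D had 7.44 and 7.29, a difference of -0.15. SNHG17, read from the brighter of its 2 probe sets, had 7.18 and 6.81, a difference of -0.37. All 4 were lower, by different amounts, while the median of the 20 nearest other genes was 0.15. A probe set that carries SNHG17 and SNORA71B together, left out of these, had 6.44 and 6.19. The SNORA5 and SNORA71 RNAs are families of close relatives, and cross-hybridization within each family was not analysed here.

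SNORA22 and SNORA14A, both on chromosome 7, were also lower. SNORA22 lies in the span of a non-coding gene and the pseudogene CCT6P1 and had 6.52 and 5.93, a difference of -0.59 or 1.51-fold. This is at the edge of 1.5-fold and fell short of it at -0.57 with median centring and at -0.51 after its neighbours' median was subtracted. SNORA14A, in POR, the gene of cytochrome P450 reductase, had 4.16 in the vector control and was below the olfactory receptor percentile in HIF2A, which bounds its difference at no less than 1.49-fold lower. POR had 5.95 and 5.92. On chromosome 7 all 5 members past the filter were lower, with a median of -0.59, and of 516 other genes there that passed 351 were lower, with a median of -0.16. SNORA15, also on chromosome 7 and held by the chaperonin gene CCT6A, did not pass the filter. Its brightest probe set had 3.61 and 3.38, and the other 2 gave equal values of 3.53 and 3.32.

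Outside ribosomal protein genes, 2 of the 26 SNORA genes past the filter were at least 1.5-fold higher, SNORA23 and SNORA74A. Of all genes past the filter 5.67% were, so this count says little. SNORA23 (ACA23), in the nuclear import gene IPO7 on chromosome 11, had 4.35 in the vector control and 5.17 in HIF2A, a difference of 0.82 or 1.77-fold. IPO7 had 7.34 and 7.78, a difference of 0.44. SNORA74A (U19), on chromosome 5, had 3.90 and 4.68, a difference of 0.78 or 1.72-fold, and lies in the span of SNHG4 and of MATR3, which had a difference of 0.51. The median of its 20 nearest other genes was 0.49, and after that was subtracted 0.30 remained. Of the 6 members past the filter on chromosome 11, 4 were higher, with a median of 0.63. Of 718 other genes there that passed 463 were higher, with a median of 0.16, and the part of this shift was not tested. SNORA57 (U99) on the same chromosome had 7.24 and 7.09.

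In 3 pairs, chosen after their values were seen, a member and its host differed by unlike amounts. SNORA75 (U23), in the nucleolin gene NCL, had 4.25 and 4.68, a difference of 0.43, whereas NCL had 10.63 in both arrays. SNORA80B, in the ornithine decarboxylase gene ODC1, had 4.18 and 4.39, and ODC1 had 10.18 in both. SNORA80A, in the ribosome biogenesis gene URB1, had 5.17 and 5.25, a difference of 0.08 beside 0.47 for URB1.

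**Figure D3:**
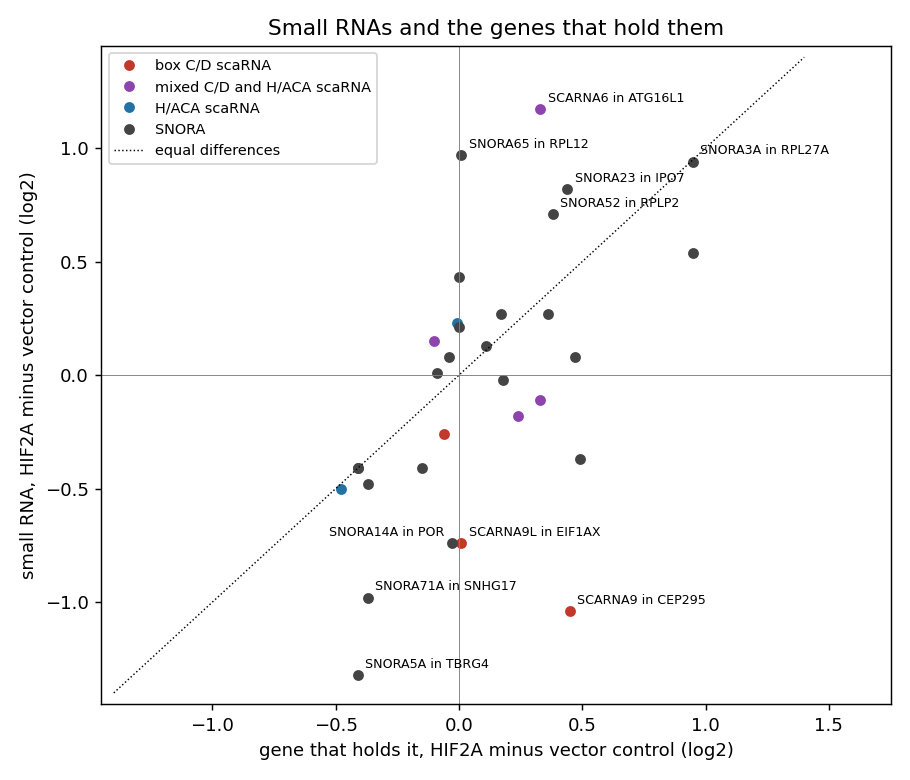
Difference between the arrays (HIF2A minus vector control, log2) of each small RNA (y axis) against that of the gene that holds it (x axis), for 31 pairs past the filter; members at least 1.5-fold different are named and the dotted line marks equal differences. SNORA3A lies near that line, SNORA65 differs where RPL12 does not, and SCARNA9 and CEP295 lie on opposite sides of 0.

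Every member lies in the span of at least 1 other gene in the RefSeq table, which gives no strand. For 55 members this was 1 gene with a probe set of its own, for 11 it was 1 gene without one, and for 11 it was several genes. Both the member and its host passed the filter in 31 pairs, over 26 hosts. The differences had the same sign in 19 pairs and opposite signs in 10, and in 2 pairs the host's difference was 0. Across the pairs Spearman's rho was 0.53, as a description. It was 0.41 after the median of 20 neighbouring genes was subtracted from both, and 0.36 with the brightest member of each of the 26 hosts. The points share both arrays, and members of 1 host share its value. The member lay farther from 0 than its host in 20 of the 31 pairs. Of the 10 members in pairs that differed at least 1.5-fold, 8 had the sign of their host, but the hosts of SNORA65 and SNORA14A lay near 0, at 0.01 and -0.03, so these signs say little. The exceptions were SCARNA9 and SCARNA9L, and EIF1AX, which holds SCARNA9L, was also at 0.01. CEP295, the centriole gene that holds SCARNA9, had 4.49 and 4.94, a difference of 0.45 in the opposite direction.

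The RNAs differ in length, from 123 to 236 bases for SNORA genes and from 125 to 421 bases for SCARNA genes in RefSeq. The box C/D scaRNAs are among the longest, with 421 bases for SCARNA17, 353 for SCARNA9, 348 for SCARNA9L and 330 for SCARNA7, and all 4 were lower in HIF2A. SCARNA10, of the mixed type, also has 330 bases. SCARNA6, the highest of the 48, has 266 bases. Spearman's rho between length and difference was -0.17 over the 48, which is weak. Between mean signal and difference rho was -0.27. SCARNA9, SCARNA17 and SCARNA7 were also the brightest members, so length and signal cannot be told apart for them. RNeasy columns are made to keep longer RNA and lose much of the shortest, so the share of each mature RNA that reached the arrays is not known. Probes in these genes can also match unspliced host transcripts, which are not told apart from the mature RNA.

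Transcripts of 3 of the 4 proteins that bind every H/ACA RNA were lower in HIF2A. GAR1 had 7.20 in the vector control and 6.22 in HIF2A, a difference of -0.98 or 1.97-fold. NOP10, a small protein bound to dyskerin, had 7.95 and 7.35, a difference of -0.60. DKC1, the pseudouridine synthase, had 8.19 and 7.84, a difference of -0.35. GAR1 lies among genes with a median of -0.34, and its difference after that is subtracted was -0.64. NHP2 had 7.84 and 8.08, a difference of 0.24, which came to -0.01 with its dimmer probe set and to -0.02 after its neighbours' median was subtracted. GAR1 and NOP10 were thus at least 1.5-fold lower, where 4.76% of all genes were. NOP10 fell short of it at -0.58 with median centring, -0.55 after its neighbours' median was subtracted and -0.52 with 32 added to each linear value.

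Of 7 genes that assemble these particles, 5 were lower and 2 higher, and 0 reached 1.5-fold. Of all genes past the filter 46.1% were lower. At least 1.5-fold, 5.67% of them were higher and 4.76% lower, so 0 of 7 says little. RPAP3, a cofactor of the chaperone HSP90, had 5.37 and 4.85, and NAF1, which occupies the place of GAR1 in immature particles, had 4.25 and 3.90. SHQ1, which holds newly made dyskerin, had 6.07 and 6.36. Of the box C/D core proteins 2 had probe sets of their own, and FBL and NOP58 were higher, by 0.25 and 0.29.

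TERC, the telomerase RNA, ends in an H/ACA domain and binds the same 4 proteins, though its symbol keeps it out of the 77. It had 7.29 in the vector control and 6.18 in HIF2A, a difference of -1.11 or 2.16-fold. TERT, the reverse transcriptase of telomerase, had 7.36 and 7.83, a difference of 0.47. The RNA of the enzyme and the transcript of its protein part thus lay on opposite sides of 0. With 32 added to each linear value, which cannot change a sign, the difference of TERC was -0.85.

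Genes of Cajal bodies and of the SMN complex, which builds spliceosomal particles, went both ways, with 10 higher and 6 lower of 16 and a median of 0.25. At least 1.5-fold higher were GEMIN4 by 0.75, ICE1 by 0.71, ELL2 by 0.66 and GEMIN7 by 0.60. At least 1.5-fold lower were GEMIN2 and GEMIN6. Of all genes past the filter 5.67% were at least 1.5-fold higher and 4.76% lower. GEMIN2 had 4.84 and 3.86, a difference of -0.98, and GEMIN6 had 6.13 and 5.49, a difference of -0.64. GEMIN2, GEMIN4, GEMIN6 and GEMIN7 are subunits of 1 complex, and they lay on both sides of 0. COIL, the scaffold of the Cajal body, had 7.19 and 7.41. WRAP53, which brings scaRNAs and TERC to Cajal bodies, had 4.68 and 4.31, a difference of -0.37.

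Genes of small RNA end processing stayed within 1.5-fold in all 8 cases, with PARN at 0.25 and TENT4B at -0.39. The 12 pseudouridine synthases that need no guide RNA also stayed within 1.5-fold, with 8 higher and 4 lower and a median of 0.03. After quantile normalization 6 were lower and the median was -0.005. Few of all genes past the filter reached 1.5-fold, 5.67% higher and 4.76% lower, so the absence of such genes in these short lists says little. PUS1 had 5.96 and 6.42, and TRUB1 had 6.25 and 5.79. Among small nuclear RNA genes, the targets of scaRNAs, 7 with symbols beginning with RNU passed the filter, 1 higher and 6 lower. Of all genes past the filter 46.1% were lower. RNU105B, which is no spliceosomal RNA, is 1 of the 6. RNU5D-1, a variant of U5, had 7.24 and 5.56, a difference of -1.68, while RNU5E-1 had 6.19 and 5.80. RNU2-1, read from the brightest of its 11 probe sets, had 6.12 and 6.03. RMRP and RPPH1, RNA parts of ribonucleases, were higher by 0.22 and 0.51.

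**Figure D4:**
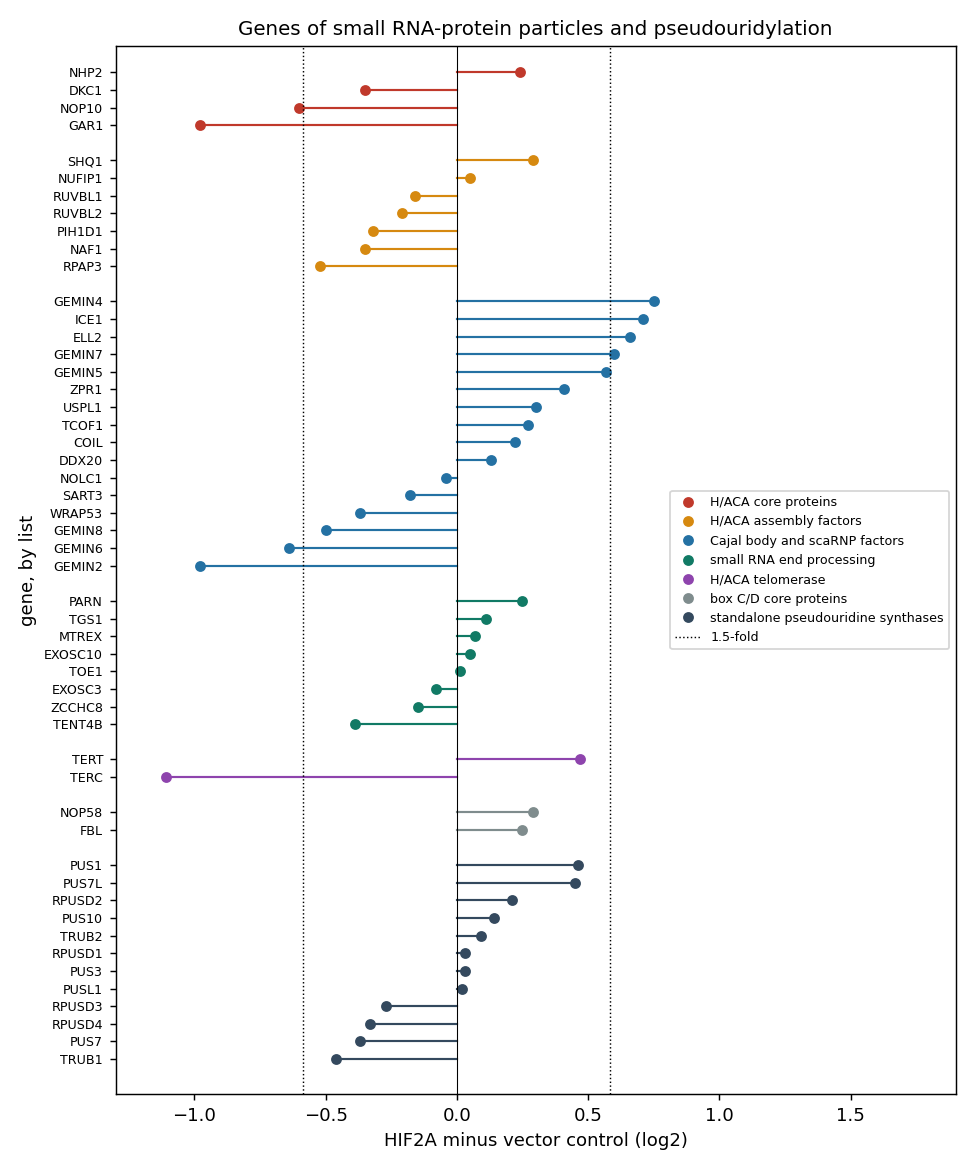
Difference between the arrays (HIF2A minus vector control, log2) for genes past the filter of H/ACA and C/D particles, Cajal bodies, small RNA end processing, telomerase and pseudouridylation without a guide, 1 point per gene, with 1.5-fold as dotted lines. GAR1, TERC and GEMIN2 are the lowest of their lists, at -0.98, -1.11 and -0.98.

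The 29 members that did not pass the filter included 17 with both arrays below the olfactory receptor percentile. Among them are SNORA20 and SNORA29 in the chaperonin gene TCP1, which itself passed the filter with a difference of 0.09, and SNORA2A in KANSL2. The SNORA70 copies B, C, D, E and F, which lie in different genes, were also dim, with signals from 3.12 to 3.87 in the vector control. SNORA70G, in RAP1B, passed with 5.70 and 5.29. SNORA35, whose host is the serotonin receptor gene HTR2C, had 3.80 and 3.79, and HTR2C had 3.76 and 3.96.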

How the data were processed

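The authors deposited log2 signals per probe set. The submitters' processing notes name Affymetrix Expression Console, and its version, the summarisation, the build and any scaling between arrays are not given in the sources. That the scale is log2 was read from the highest value, 13.97, since a natural log of a 16-bit reading cannot pass 11.09. Of 28869 probe sets, 19310 have 1 gene symbol and 1752 have several, which were left out, and the rest have none. A gene was read from the probe set whose mean over both arrays was highest. In RefSeq's gene table for GRCh38.p14, 77 of 77 members were found, and it gave lengths, order and holding genes. It gives no strand, so the intended limit to hosts on the same strand was not applied. The types of scaRNA and the gene lists come from general knowledge. The members and lists were chosen with earlier results of these data known. Named are all SCARNA genes, SNORA genes at least 1.5-fold different, the 10 brightest, those with several probe sets, and their hosts; a few others were picked after their values were seen, and 1 of the 10 is not reported here. SNORA63 and SNORA73B, also to be named, have no probe set of their own, and SNORA73A shares one with SNHG3. Simulated data with known differences were used to check the counts, so the computation was tested on simulated data. With 1 array per group no SE or p-value can be had, and that number limits the precision. Python 3.11.15, numpy 2.4.6, pandas 2.3.3, statsmodels 0.14.6 and matplotlib 3.10.9 were used.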

Additional observations from a re-analysis of the deposited data

How the results depend on the processing

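No paired analysis was possible because each group has 1 array, and for the same reason no replicate could be left out. The alternatives were quantile normalization, median centring, loess centring (span 0.3), an offset of 32 before log2, a filter at the 25th or 75th percentile or none, the mean or the dimmest of a gene's probe sets, subtracting the median of 20 neighbours, and 2-fold in place of 1.5-fold. Keeping only the brightest member of each holding gene was chosen after seeing the data. The counts of 7 higher and 7 lower came to 2 and 4 with 32 added, which shrinks dim genes by construction, and to 1 and 2 at 2-fold. Of all genes past the filter 1.21% were higher and 1.25% lower by 1.5-fold with 32 added, and 0.706% and 0.732% by 2-fold. With 32 added SCARNA6, SNORA3A, SCARNA9, SCARNA17, SNORA5A and SNORA71A stayed past 1.5-fold, and SNORA65 (0.38), SNORA23 (0.38), SNORA52 (0.46), SNORA74A (0.30), SCARNA16 (0.35), SCARNA9L (-0.42), SNORA22 (-0.41) and SNORA14A (-0.22) did not. With the filter at the 75th percentile 21 members entered, with a median of -0.23, 4 at least 1.5-fold higher and 6 lower. Of 6100 genes that passed it, 6.95% were higher and 5.82% lower by that much. In the other settings the counts stayed within 1.5 times and the median within 0.1 log2 units. Without a filter the median over all 77 was 0.01, so the side of 0 on which it lies is not settled. Of 231 values of 33 named members, 220 moved by less than the robust SD, 9 moved by more, and 2 reversed. Many of the 220 were fixed in advance. Only 5 of the members have several probe sets, so the mean and the dimmest probe set cannot change the others. Median centring moves every value by the same small amount. The reversed ones were SCARNA9 and SCARNA9L with the dimmest probe set, at 0.24 and 0.55. The 4 box C/D scaRNAs, GAR1, NOP10, DKC1 and TERC stayed lower under each of the 3 normalizations. These moved each value by much less than its difference, so this says little about direction. Adding 32 cannot change a sign and is no check of it.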

Other observations

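A further 28 probe sets carry a SNORA or SCARNA symbol together with another symbol, most often that of the host, so their signal cannot be assigned to the small RNA. Of these 21 passed the filter, 18 higher and 3 lower in HIF2A, with a median difference of 0.31. At least 1.5-fold, 6 were higher and 1 lower, where 5.67% and 4.76% of all genes past the filter were. The probe set of SNHG3 and SNORA73A, the latter an RNA of early ribosomal RNA processing, had 10.42 in the vector control and 11.10 in HIF2A. The probe set of SNORA40 and its host TAF1D had 4.19 and 5.16, and that of SNORA4 and the translation initiation gene EIF4A2 had 5.25 and 6.02. The probe set of SNORA9 and SNHG15, on chromosome 7, had 4.65 and 3.87. Some of these probe sets share genes, such as 4 past the filter that carry SNORA70 and RPL10, and are not independent.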
